A study of Rattus norvegicus with 8 samples.

Results

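Immediate early genes are switched on within minutes of a stimulus, without new protein synthesis, by transcription factors that already wait at their promoters. Synaptic activity, growth factors, cytokines and mechanical or metabolic stress act through MAP kinases and calcium on the serum response factor SRF with its ternary complex partners, and on CREB. Most of their products are transcription factors themselves: Fos and Jun proteins pair through leucine zippers to form AP-1, and Egr1 and Nr4a1 bind DNA as a zinc finger protein and an orphan nuclear receptor. In spinal cord Fos has long served as a marker of neurons that were recently active, and Jun as a gene that injured neurons turn on, while glia and macrophages use the same genes.

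The set described here was given by name as 10 immediate early genes: Fos, Fosb and Fosl2 of the Fos family, Jun, Junb and Jund of the Jun family, Egr1, Nr4a1, Arc and Ier2. Its members and the gene lists used below were chosen with earlier results of these data known. Their counts beside those of all genes are therefore descriptions. A gene was measured where a probe set carried exactly 1 gene symbol equal to its name, and the brightest such probe set was kept. This gave 9 of the 10 genes, out of 18166 genes in all, and Fosl2 was not analysed here. Of the 9, 7 encode transcription factors. Arc encodes a synaptic protein that acts on glutamate receptor traffic, and Ier2 a small nuclear protein, so the set is called immediate early genes below.

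The tissue was fresh thoracic spinal cord of Long Evans males, about 175 days old and weighing 400 g, decapitated while conscious, and each sample was hybridised to an Affymetrix Rat Gene 2.0 ST array. An injury of the thoracic cord (SCI) had been made in the rats of 4 arrays, and the other 4 arrays came from sham rats, whose laminectomy left the cord uninjured. All rats of both groups recovered for 4 weeks on a chow with 17% fat and then ate a palatable diet with 40% fat, in a design whose text gives 8 weeks as a total, so the diet is common to the groups. The labels name the piece as thoracic segments 10 to 11 in 1 field and 11 to 12 in another, and none gives its distance from the lesion. They describe separate samples but tie no array to an animal of the 10 named in the design text, so that the p-values measure the spread between these samples, which may be technical in part.

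Values are RMA values on the log2 scale, on which a difference of 1 is a doubling of signal. They were compared by limma across all 18166 genes, and a gene is called higher or lower at a Benjamini-Hochberg adjusted p under 0.05. Array medians lay between 3.73 and 3.81. The arrays SCI 3, sham 1 and sham 2 stood apart from the other 5 on the second principal component, which held 11.2% of the variance, so results are also given without them. Where it moved a count or value, a fit with the number in each sample's title as a covariate, whose meaning the labels do not give, is named too. In whole cord, fewer cells of a type and less RNA per cell cannot be told apart. Markers of neurons, oligodendrocytes and astrocytes were bright on every array: no mean over such a list was below 8.28, against a median of 4.74 over all genes.

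RefSeq promoter windows (rat build GRCr8) were matched for 6 of the 9 measured genes, and the 250 bases before the annotated transcript start were searched on both strands for 6 motifs. These were the CArG box bound by SRF, the CRE bound by CREB (TGACGTCA), the AP-1 site (TGACTCA), the EGR site (GCGNGGGCG), the TATA box (TATAAA) and the NBRE bound by Nr4a receptors (AAAGGTCA). The windows of Egr1, Ier2 and Junb are shown because these genes were higher in SCI, and that of Jund because it shares a motif with Ier2 and did not pass the test. They are Egr1 at chr18:26736828-26737077 on the plus strand, Ier2 at chr19:40399123-40399372 on the plus strand, Junb at chr19:40080876-40081125 on the plus strand and Jund at chr16:18769772-18770021 on the minus strand. Each is written 5′ to 3′ along the gene, with the motif matches in capitals.
Egr1: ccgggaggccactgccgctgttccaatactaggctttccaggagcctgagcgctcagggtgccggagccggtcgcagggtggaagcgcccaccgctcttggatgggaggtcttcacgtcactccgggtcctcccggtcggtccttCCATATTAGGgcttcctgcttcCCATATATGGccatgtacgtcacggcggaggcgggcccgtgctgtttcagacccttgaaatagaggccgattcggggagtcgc
Ier2: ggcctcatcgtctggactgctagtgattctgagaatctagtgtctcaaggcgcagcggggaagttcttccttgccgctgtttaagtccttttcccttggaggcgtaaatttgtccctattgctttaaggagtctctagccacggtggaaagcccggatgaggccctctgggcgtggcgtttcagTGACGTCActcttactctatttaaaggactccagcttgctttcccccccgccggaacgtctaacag
Junb: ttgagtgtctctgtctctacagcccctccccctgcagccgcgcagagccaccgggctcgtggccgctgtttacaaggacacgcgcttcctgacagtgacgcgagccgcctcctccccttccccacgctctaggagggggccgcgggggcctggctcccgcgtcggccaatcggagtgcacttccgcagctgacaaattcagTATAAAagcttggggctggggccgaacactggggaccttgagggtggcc
Jund: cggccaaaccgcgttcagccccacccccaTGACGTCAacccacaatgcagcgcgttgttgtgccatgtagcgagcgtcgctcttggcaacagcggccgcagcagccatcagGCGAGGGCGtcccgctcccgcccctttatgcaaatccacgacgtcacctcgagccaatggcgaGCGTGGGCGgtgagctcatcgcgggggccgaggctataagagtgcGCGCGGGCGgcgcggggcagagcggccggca

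The capitals mark 2 CArG boxes in Egr1, which begin 105 and 83 bases before the start. In Ier2 they mark a CRE that begins 66 bases before the start. In Junb they mark a TATA box at 49 bases. In Jund they mark a CRE at 221 bases and EGR sites at 139, 76 and 31 bases. A CArG box stood in 1.5% of all 33469 windows of this length, a CRE in 1.59%, an EGR site in 4.29% and a TATA box in 12.9%. The window of Nr4a1 held 1 EGR site and that of Fosb 1 TATA box on the opposite strand. AP-1 sites and NBREs, found in 4.05% and 1.24% of all windows, matched none of the 6. These matches are letters in a window and not shown binding sites, and the arrays measured no binding.

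**Figure D1:**
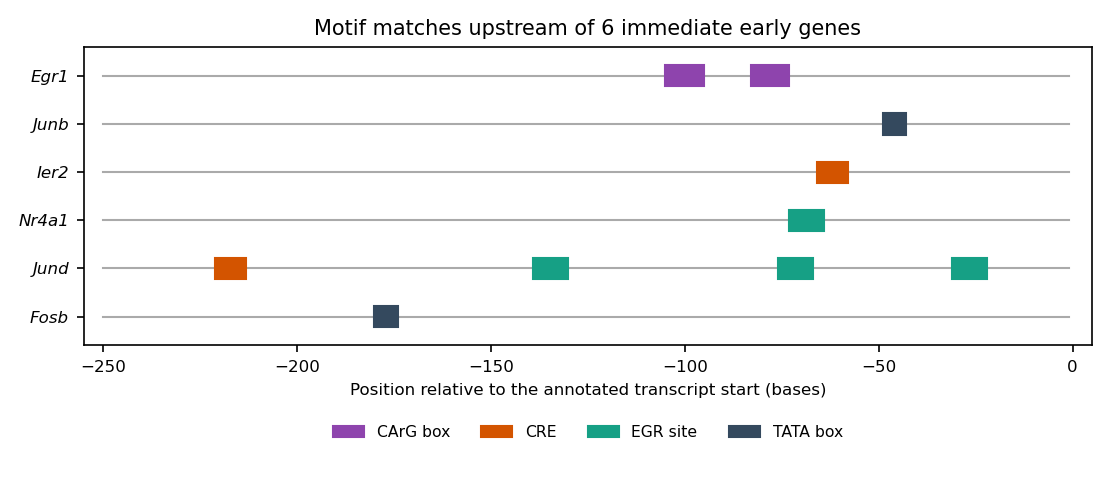
Motif matches in the 250 bases before the annotated transcript start of 6 immediate early genes. The horizontal axis gives the position in bases relative to the start, each grey line is a window, and the boxes mark matches. The CArG boxes lie in Egr1 alone among these 6, and a CRE lies in Ier2 and in Jund.

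In injured cord, 5 of the 9 measured genes were higher than in sham cord and 0 were lower: Fos, Egr1, Ier2, Junb and Jun. Over all genes, 7.1% were called higher and 7.06% lower, together 14.2%. The median difference over the 9 genes was 0.52, beside -0.01 over all genes tested. SCI and sham values did not overlap in 4 of the 9, Fos, Egr1, Junb and Jun, all with SCI on top. The same held for 9.36% of all genes, and 10.9% had SCI below sham without overlap. Jund, Nr4a1 and Fosb had differences above 0 and Arc one below 0, and these 4 did not pass the test. None of the 9 reached a doubling. In the same samples all 12 macrophage and microglia markers were higher, with list means of 8.12 to 8.53 in SCI arrays and 6.69 to 6.97 in sham arrays. All 12 neuronal markers were lower, with list means of 8.28 to 8.56 in SCI arrays and 8.92 to 9.04 in sham arrays. The count of lower neuronal markers was 8 to 10 when single arrays were left out, 1 without SCI 3, sham 1 and sham 2, and 3 in the covariate fit. The count of higher macrophage and microglia markers was 11 to 12 when single arrays were left out. It was 9 without SCI 3, sham 1 and sham 2, and 10 in the covariate fit. Of 9 oligodendrocyte markers 7 were lower, and of 8 fibroblast and meninges markers 6 were higher. Without SCI 3, sham 1 and sham 2 these counts were 4 and 2. Of 9 astrocyte markers 2 were higher and 1 lower, and of 8 endothelial and pericyte markers 1 was higher. The part of these cell types in the differences of the immediate early genes was not tested.

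**Figure D2:**
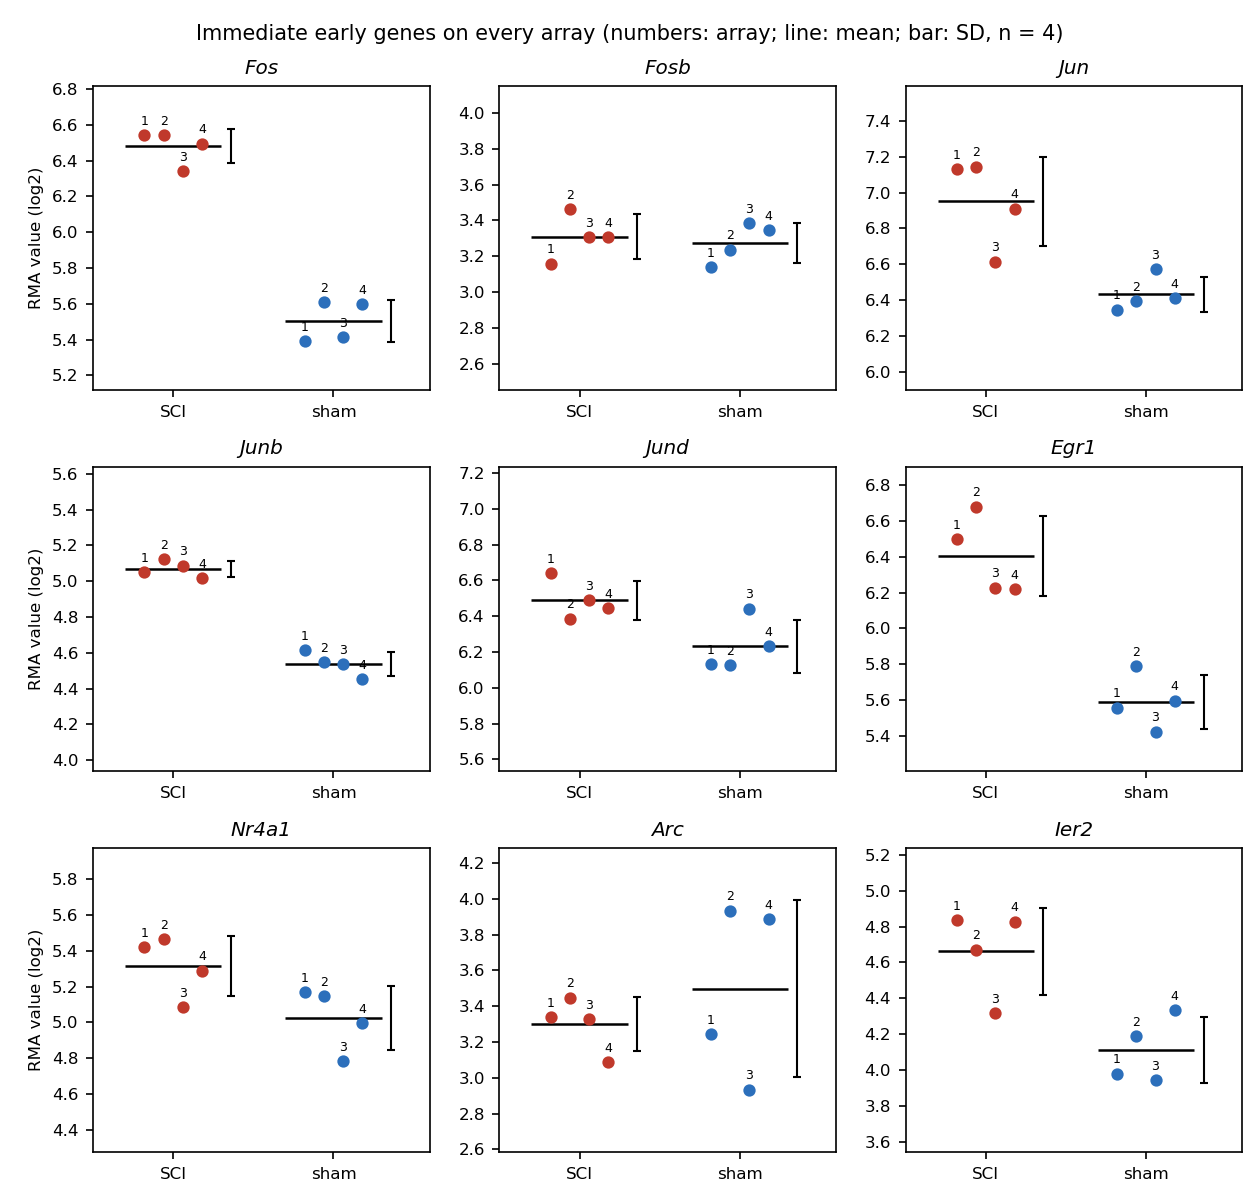
RMA values (log2, vertical axis) of the 9 measured genes on each of the 4 SCI arrays (red) and 4 sham arrays (blue), with the array number at each point, the group mean as a line and the SD as a bar. All panels span the same height. The groups are clear of each other in Fos, Junb and Egr1, come within 0.04 of each other in Jun, and overlap in the others, in Ier2 by SCI 3 alone.

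Fos, which needs a Jun partner to bind DNA as AP-1, had the smallest p of the 9. Its values were 6.54, 6.54, 6.34 and 6.49 on SCI arrays 1 to 4, and 5.39, 5.61, 5.41 and 5.60 on sham arrays 1 to 4. Every SCI array stood at least 0.73 above the highest sham array. Fos averaged 6.48 ± 0.10 in SCI and 5.50 ± 0.12 in sham (SD, n = 4 each), a difference of 0.98 (SE 0.10, 95% interval 0.76 to 1.19) or 1.97-fold (limma, adjusted p = 1.6e-04). By p-value it ranked 116 among the 18166 genes. The call held under all 17 alternatives, with differences of 0.94 to 1.02.

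Fosb encodes a close relative of Fos that also pairs with Jun proteins, and its truncated product is known for building up under repeated stimulation. The arrays read 3.16, 3.46, 3.31 and 3.31 in SCI and 3.14, 3.24, 3.39 and 3.35 in sham, so that the groups covered the same range. The difference was 0.03 (SE 0.10, 95% interval -0.19 to 0.26, limma adjusted p = 0.89), and its sign turned in 4 of 16 alternatives. This probe set is dim, with only 29.0% of genes below it in mean signal, and RMA compresses differences of dim probe sets. Splice forms of Fosb were not measured apart.

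Among the Jun family, Junb and Jun were higher and Jund did not pass. Junb, which pairs with Fos but is a weaker activator than Jun, had 5.05, 5.12, 5.09 and 5.02 on SCI arrays, against 4.61, 4.55, 4.54 and 4.45 on sham arrays. Both groups were tight and lay 0.40 apart at their nearest arrays. The difference was 0.53 (SE 0.09, 95% interval 0.34 to 0.72), with an adjusted p of 0.0025 by limma.

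Jun, the DNA-binding core of AP-1 and a target of the JNK kinases, had 7.13, 7.15, 6.61 and 6.91 on SCI arrays and 6.35, 6.39, 6.57 and 6.41 on sham arrays. SCI 3 was only 0.04 above sham 3, while SCI 1 and SCI 2 were well clear of the sham range. The difference was 0.52 (SE 0.13, 95% interval 0.24 to 0.80, limma adjusted p = 0.022). The call was lost without any 1 of SCI 1, SCI 2, sham 1, sham 2 and sham 4 (adjusted p of 0.053 to 0.066), and at 0.058 without SCI 3, sham 1 and sham 2. A second, dimmer probe set of Jun averaged 4.68 ± 0.21 in SCI and 4.45 ± 0.12 in sham (SD, n = 4 each), a difference of 0.24 with overlapping groups (exact two-sided permutation p = 0.11).

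Jund, the family member that most cells keep at a steady level and that is regarded as the least inducible, had 6.64, 6.39, 6.49 and 6.44 on SCI arrays and 6.13, 6.13, 6.44 and 6.23 on sham arrays. Sham 3 reached into the SCI range, and the other 3 sham arrays lay below it. The difference was 0.26 (SE 0.11, 95% interval 0.02 to 0.49) and did not pass after adjustment (limma, adjusted p = 0.14).

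Egr1, a zinc finger factor with GC-rich target sites and the gene whose window above holds CArG boxes, had 6.50, 6.68, 6.23 and 6.22 on SCI arrays. Its sham arrays read 5.56, 5.79, 5.42 and 5.60. SCI 1 and SCI 2 were the higher pair among the injured samples, and even the lowest SCI array was 0.43 above the highest sham array. Egr1 averaged 6.41 ± 0.22 in SCI and 5.59 ± 0.15 in sham (SD, n = 4 each), a difference of 0.81 (SE 0.13, 95% interval 0.53 to 1.10) or 1.76-fold (limma, adjusted p = 0.0023). The call held under all 17 alternatives, with differences of 0.72 to 0.96.

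Nr4a1, an orphan nuclear receptor induced by calcium and cAMP signals and also prominent in monocytes, had 5.42, 5.46, 5.09 and 5.29 on SCI arrays and 5.17, 5.15, 4.78 and 5.00 on sham arrays. In SCI, 3 of 4 arrays were above every sham array, and SCI 3 fell inside the sham range. The difference was 0.29 (SE 0.12, 95% interval 0.02 to 0.56, limma adjusted p = 0.15), and it was 0.50 without SCI 3, sham 1 and sham 2 (adjusted p = 0.075) and 0.17 in the covariate fit (adjusted p = 0.51).

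Arc, whose transcript follows synaptic activity in neurons and is carried into dendrites, had 3.34, 3.45, 3.33 and 3.09 on SCI arrays and 3.24, 3.93, 2.93 and 3.89 on sham arrays. The sham arrays fell into a higher pair, sham 2 and sham 4, and a lower pair, and all SCI arrays lay between the lowest and the highest sham array. Arc averaged 3.30 ± 0.15 in SCI and 3.50 ± 0.49 in sham (SD, n = 4 each). The difference of -0.20 had an SE of 0.21 and a 95% interval of -0.66 to 0.26 (limma, adjusted p = 0.62). It moved to -0.05 without sham 2, -0.07 without sham 4, -0.13 without SCI 4 and -0.39 without sham 3. With 30.5% of genes below it in mean signal, this probe set is dim as well.

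Ier2, a growth factor-inducible nuclear protein whose window above holds a CRE, had 4.84, 4.67, 4.32 and 4.83 on SCI arrays, against 3.98, 4.19, 3.94 and 4.33 on sham arrays. SCI 3 was level with sham 4, and the other 3 SCI arrays were above all sham arrays. The difference was 0.55 (SE 0.14, 95% interval 0.24 to 0.86, limma adjusted p = 0.024). The call was lost without any 1 of SCI 1, SCI 2, SCI 4, sham 1 and sham 3 (adjusted p of 0.058 to 0.067), and at 0.060 without SCI 3, sham 1 and sham 2. Without those 3 arrays the calls were those of Fos, Egr1 and Junb, 3 of the 9.

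**Figure D3:**
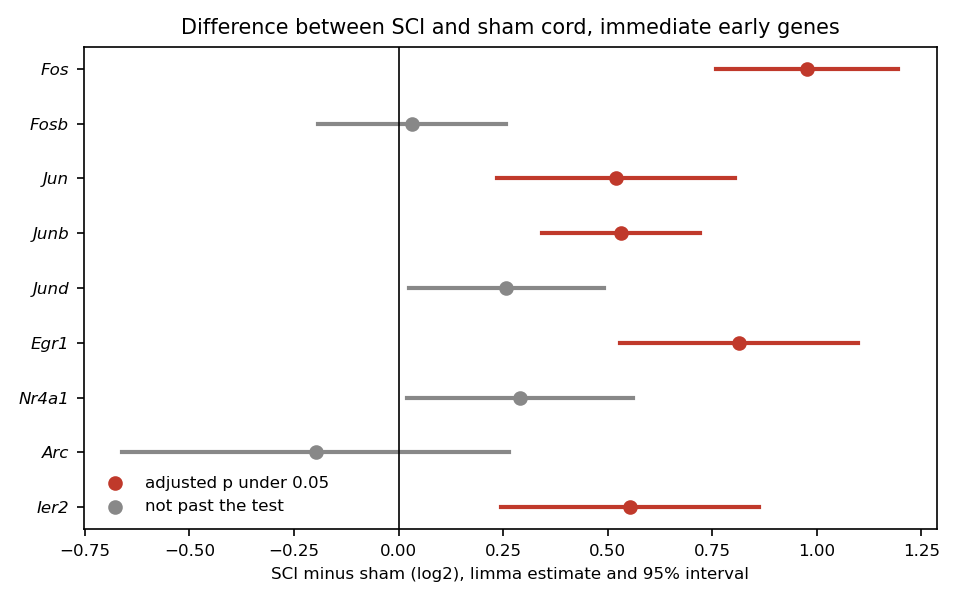
Difference between SCI and sham (log2, horizontal axis) of the 9 measured genes, as the limma estimate with its 95% interval, unadjusted for the number of genes. Red marks an adjusted p under 0.05. Fos lies highest at 0.98, the intervals of Jund and Nr4a1 reach close to 0, and those of Fosb and Arc span it.

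Whether paired genes changed unequally was tested on each array's difference between the log2 values of 2 genes. The 5 pairs were those within the Fos family and the Jun family, and Egr1 with Nr4a1, which are of different families. With 4 arrays against 4, an exact two-sided permutation test cannot give a p below 0.029. Fos changed by 0.94 more than Fosb and Egr1 by 0.52 more than Nr4a1, each at that smallest p of 0.029, with no overlap between SCI and sham arrays. Adjusted over the 5 pairs the p was 0.071 for both, so the differences did not pass. With only these 2 pairs at the smallest p, their adjusted p could not fall below 0.071. The adjusted test therefore cannot decide whether they changed unequally. Junb changed by 0.27 more than Jund (exact permutation p = 0.086, adjusted 0.14) and Jun by 0.26 more than Jund (0.14, adjusted 0.18). Jun and Junb differed in their change by -0.01 (exact permutation p = 0.94).

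Within a group the genes varied from array to array, and some of them did so together. Among SCI arrays, SCI 2 was the highest for 7 of the 9 genes, all but Jund and Ier2. SCI 3 was the lowest for 4, Fos, Jun, Nr4a1 and Ier2, and SCI 4 for Junb, Egr1 and Arc. Some of these ranks are near ties. SCI 2 and SCI 1 read 6.543 and 6.542 for Fos and 7.15 and 7.13 for Jun. For Egr1, SCI 4 and SCI 3 read 6.22 and 6.23. SCI 2 also had the highest macrophage list mean (8.53) and the lowest neuronal one (8.28) of the injured samples. In sham cord, sham 3 was the lowest for Egr1, Nr4a1, Arc and Ier2, and yet the highest for Fosb, Jun and Jund. Sham 3 had the highest macrophage list mean of the sham arrays (6.97). Sham 2 had the lowest macrophage list mean (6.69) and the highest neuronal one (9.04), and was the highest for Fos, Egr1 and Arc. A link between these list means and the array ranks was not tested.

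After each group's mean was taken out, the Pearson correlation over the 8 arrays was 0.88 between Fos and Ier2, 0.78 between Egr1 and Nr4a1, 0.72 between Fos and Arc and 0.70 between Fos and Egr1. Junb ran against Ier2 (-0.62) and Fos (-0.45). Of all 36 pairs, 22 were above 0, with a median of 0.18. These are descriptions of arrays that share their processing, and 4 arrays a group are too few to test them. The genes outside the set whose within-group pattern was most like that of Fos, among 11668 genes that varied enough, were Mfsd5 (0.99) and Otos (0.98). The pattern most like the mean of the 9 genes was that of Stk10 (0.99). These are the top ranks of a search over many genes and 8 arrays, with no test.

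Other genes of the same pathway were read from lists by role. Of the Fos, Jun and ATF relatives 12.5% were called, and of the Egr and Nr4a list 14.3%. The second list also holds corepressors that bind Egr proteins, and its share counts them. Both shares are near the 14.2% of all genes called in either direction. Of 8 other Fos, Jun and ATF relatives, 1 was higher: Atf3, a stress-induced partner of Jun and a known injury gene of neurons, which averaged 5.58 ± 0.32 in SCI and 4.43 ± 0.20 in sham (SD, n = 4 each), a difference of 1.16 (SE 0.16, limma adjusted p = 0.0011). Of the 7 genes of the Egr and Nr4a list, 1 was higher, the nuclear receptor Nr4a3 (0.50, SE 0.13, adjusted p = 0.030), and Egr2 had 0.49 (SE 0.16, adjusted p = 0.076). Nr4a3 lost its call without any 1 of SCI 1, SCI 2, sham 3 and sham 4 (0.072 to 0.087), and Egr2 gained one without sham 2 (0.048). The call of Nr4a3 was also lost without SCI 3, sham 1 and sham 2 (0.062) and when all probe sets were adjusted together. In the covariate fit its difference was 0.36 (adjusted p = 0.18).

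Of 32 further immediate early genes, 12 were higher and 1 lower, beside the 7.1% and 7.06% of all genes. Zfp36 and Zfp36l1, which bind AU-rich messages and hasten their decay, were higher by 1.09 (SE 0.10, adjusted p = 1.2e-04) and 1.05 (SE 0.11, adjusted p = 2.6e-04). The growth arrest gene Gadd45g was higher by 0.97 (SE 0.14, adjusted p = 0.0016) and the zinc finger factor Klf6 by 0.65 (SE 0.13, adjusted p = 0.0062). The lower gene was Rgs2, a brake on G protein signalling named after its value was seen (-0.55, SE 0.15, adjusted p = 0.036), and its call was lost without any 1 of SCI 2, SCI 4, sham 1 and sham 2 (0.082 to 0.098). Of the genes not past the test, the neuron-specific activity factor Npas4 had 2.34 ± 0.15 in SCI and 2.74 ± 0.29 in sham (SD, n = 4 each), a difference of -0.40 with an adjusted p of 0.10, and Klf10 had 0.46 (adjusted p = 0.12). The probe set of Npas4 is dim: its brightest array, sham 3, read 3.15, below the smallest array median of 3.73. The higher genes of this list numbered 7 of 32 without SCI 2, 7 in the covariate fit and 7 when all probe sets were adjusted together. Without SCI 3, sham 1 and sham 2 they numbered 6, and Gadd45g was not among them (adjusted p = 0.057).

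The lists of upstream regulators are read beside the 14.2% of all genes that were called in either direction. Of 8 MAP kinase phosphatases, 1 was higher, Dusp1, itself an immediate early gene that switches MAP kinases off (0.62, SE 0.11, adjusted p = 0.0051). Of 6 genes for SRF and its cofactors, 1 was higher, the ternary complex factor Elk3 (0.82, SE 0.11, adjusted p = 7.1e-04). Of 10 CREB and MEF2 genes, 1 was higher, the CREB coactivator Crtc2 (0.37, SE 0.10, adjusted p = 0.028), but not without any 1 of SCI 2, SCI 3, SCI 4, sham 1, sham 3 and sham 4 (0.053 to 0.081). The higher count of that list was 0 to 4 over the alternatives. Of 18 MAP kinases and kinases that signal to them, 2 were higher and 4 lower, together 33.3%. Mapk10, the JNK gene most confined to neurons, was lower (-0.54, SE 0.11, adjusted p = 0.0082), as were Map2k4, which activates JNK (-0.48, SE 0.11, adjusted p = 0.017), and Mapk9, another JNK gene (-0.43, SE 0.10, adjusted p = 0.019). Mapkapk2, a kinase under p38, was higher by 0.61 (SE 0.13, adjusted p = 0.0098). Map2k4 lost its call without SCI 2 or sham 4 (0.053 and 0.051) and Mapk9 without any 1 of SCI 2, sham 3 and sham 4 (0.055 to 0.061). The lower kinases numbered 2 without SCI 2 or sham 3, 1 without sham 4 and 0 in the covariate fit, and without SCI 3, sham 1 and sham 2 all 6 of these kinase calls were lost. Protein phosphorylation, through which these kinases act, was not measured.

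**Figure D4:**
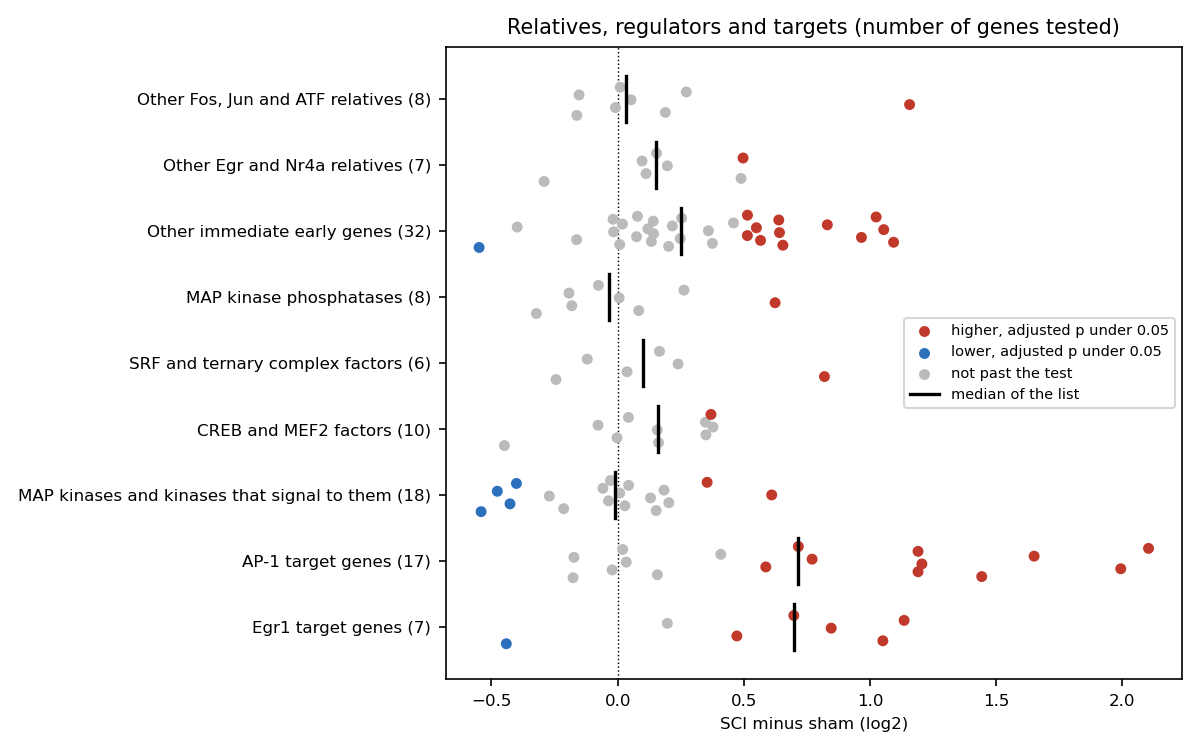
Difference between SCI and sham (log2, horizontal axis) of every tested gene of 7 lists of relatives and regulators and 2 lists of target genes, with the number of genes tested in brackets. Red and blue mark genes higher and lower at an adjusted p under 0.05, grey those not past the test, and the black line the median, which is 0.25 for the further immediate early genes and 0.72 for the AP-1 targets.

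The lists of targets are read beside the 7.1% of all genes called higher and the 7.06% called lower. Of 17 genes known as AP-1 targets, 10 were higher and 0 lower, with a median difference of 0.72. They were led by the urokinase gene Plau (1.21, SE 0.11), the protease inhibitor Timp1 (1.99, SE 0.19), the intermediate filament Vim (1.19, SE 0.11) and the hyaluronan receptor Cd44 (1.19, SE 0.12), each at an adjusted p of 1.2e-04. The other 7 did not pass the test. Among them Spp1, osteopontin, had 0.41 (adjusted p = 0.060) and passed without SCI 4 (0.032). The rest, which include matrix metalloproteinase genes, had differences of only -0.18 to 0.16. The metalloproteinase genes were dim, with group means of 1.92 to 3.53. The higher AP-1 targets numbered 7 without SCI 3, sham 1 and sham 2. Of 7 known Egr1 targets, 5 were higher and 1 lower, among them Tgfb1 (1.05, SE 0.11, adjusted p = 2.3e-04) and the adhesion gene Icam1 (1.14, SE 0.16, adjusted p = 9.7e-04). The lower one was the growth factor Pdgfa (-0.44, SE 0.11, adjusted p = 0.018, and 0.053 without sham 3). The higher Egr1 targets numbered 2 without any 1 of SCI 1, SCI 2, SCI 3, sham 2 and sham 4, 3 without sham 1 or in the covariate fit, and 2 without SCI 3, sham 1 and sham 2 together. Macrophages, astrocytes and fibroblasts express many of these targets, and the fibroblast list means were 7.51 to 8.08 in SCI arrays and 6.72 to 7.15 in sham arrays. Whether the targets changed through the factors was not tested.

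Heat shock genes, which like immediate early genes respond to handling and stress, numbered 7. Of these 1 was higher, the small heat shock gene Hspb1 (1.80, SE 0.14, adjusted p = 3.4e-05), and 2 were lower, together 42.9%. Over all genes, 7.1% were called higher and 7.06% lower, together 14.2%. The count of lower heat shock genes was 1 without any 1 of SCI 1, SCI 2, SCI 3, sham 1, sham 3 and sham 4. It was 0 in the covariate fit or without SCI 3, sham 1 and sham 2. List means were 7.75 to 7.85 in SCI arrays and 7.60 to 7.81 in sham arrays, so that these means overlapped. They include the rise of Hspb1, while the median difference over the 7 genes was -0.19. The overlap therefore does not show that the single genes were alike in the groups.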

How the data were processed

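RNA of 8 cord samples, 4 SCI and 4 sham, was hybridised to Affymetrix Rat Gene 2.0 ST arrays. Per the submitters' processing notes, the authors made the deposited log2 values with Affymetrix Expression Console and RMA, which corrects background, normalizes between arrays and summarises the probes of a probe set. The notes name no version, setting or genome build, and RMA and the range of values give the log base. The number of arrays limits the precision.

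Of 36685 probe sets, 18511 carried 1 symbol and 575 several. Keeping the brightest probe set of a symbol left 18166 genes. Group differences came from limma 3.58.1 under R 4.3.3, with lmFit, eBayes and no covariate, and Benjamini-Hochberg adjustment over all genes, and the fit was tested on simulated data. Every adjusted p is from limma unless a permutation test is named. Pair differences were tested by exact permutation over 70 assignments. All 9 measured members are named. From other lists, up to 4 genes past the test with the smallest p and up to 2 others with the largest difference could be named. Genes like a member needed a within-group SD of at least 0.15. The members and lists were chosen with earlier results of these data known. Alternatives concerned scaling, arrays used, a title number as covariate, a filter on dim genes, the features tested and the variance model. Replicates were numbered in accession order and pair no samples.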

Additional observations from a re-analysis of the deposited data

Results flagged for a closer look

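Among 35 named genes, 70 groups of 4 arrays were examined for an array far from the other 3, and chance marks about 1 in 20 such groups. In 1 of them an array stood apart: Klf6 on sham 1 was 6.29, where the other 3 sham arrays lay between 5.91 and 5.97. None of the 18 groups of the 9 immediate early genes was marked.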

How the results depend on the processing

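The count of immediate early genes called higher was 5 of 9. It ranged from 3 to 5 when single arrays were left out, and was 3 without SCI 3, sham 1 and sham 2, 3 with the title number as covariate and 3 when all probe sets were adjusted together. The lost calls were Jun and Ier2, and Fos, Egr1 and Junb kept theirs under all 17 alternatives. The count lower was 0 throughout. The difference of Fosb, not called, was -0.0067 with arrays centred on their median, -0.0196 to 0.0825 when single arrays were left out (below 0 without SCI 2 or sham 1), and -0.0563 without the 3 arrays named above. Over all genes, 1290 were higher and 1282 lower. Leaving out single arrays gave 923 to 1257 and 780 to 1283, leaving out the 3 arrays 563 and 284, the covariate 813 and 543, and adjusting all probe sets together 838 lower. Among the other 26 named genes, 9 lost their call under at least 1 alternative, 2 gained one and 0 turned sign. With array centring the median of all genes was -0.05. Leaving out arrays leaves fewer samples, and the cause of the other changes was not tested. No paired analysis was possible because the labels give the groups no shared replicate numbers.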
